A study of Mus musculus with 9 samples.

Results

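Daw1 and 8 further factors that build the dynein arms of cilia and sperm tails were examined in chromatin captured with probes against the long noncoding RNA Gm4665. The set holds 9 of the 49603 mouse genes placed on the standard chromosomes. Daw1 was chosen by its folds in the Gm4665 peak list, which are among the highest at any gene. The other 8 were chosen by their known role, at a time when earlier results of these data were known. Every peak of 2 deposited lists that overlapped a gene, or the 2 kb on either side of it, by at least 1 bp was taken. The folds that led to Daw1 are therefore given as a description, with no test.

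The samples were testis germ cells of mice of the ICR strain, wild type and at postnatal day 35. Cross-linked, sonicated chromatin was captured with biotinylated probes for Gm4665 or with probes for LacZ, a bacterial gene that serves as the control, and was sequenced beside input DNA. Each of the 3 groups holds 3 replicates, and each peak carries 1 fold enrichment over input for every replicate. The sample titles call the captured RNA LncRNA-20, and its identity with Gm4665 is read from the protocol of the same samples. Whether the replicates were separate animals is not stated, so an SD here is the spread between samples and may be technical. All groups share genotype, strain and age, and the libraries are of genomic DNA, so germ cell markers could not be read from them as expression.

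Dynein arms are rows of motor complexes that slide the microtubules of the axoneme, the core of motile cilia and of the sperm tail. They are folded and put together in the cytoplasm by dedicated chaperone factors, carried into the growing axoneme, and fixed at regular sites on the microtubule doublets. Loss of these factors can impair or stop the beating of cilia and sperm tails, and in the testis the axoneme is built in spermatids.

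The Gm4665 list held 4 peaks in these 9 genes, 1 each in Daw1, Dnaaf2, Dnaaf1 and Ccdc39. Daw1 stood far above the other members, with a mean fold of 68.3 ± 8.51 (SD, n = 3), against 22.2 ± 1.06 at Dnaaf2, 8.73 ± 1.10 at Dnaaf1 and 7.70 ± 2.00 at Ccdc39 (SD, n = 3 each). The LacZ list held 1 peak, in Dnaaf3, which had no Gm4665 peak. Dnaaf5, Zmynd10, Ccdc103 and Ccdc40 had no peak in either list, and no member had a peak in both. A Gm4665 peak was thus present in 4 of 9 members (44.4%), beside 39.3% of 21779 protein-coding genes with the same windows. Daw1 was chosen for its peak, so its place among the 4 was fixed in advance. A LacZ peak was present in 1 of 9 (11.1%), beside 16.9% of protein-coding genes. Both shares lay near their background, so the count of genes with a peak does not set the assembly factors apart.

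**Figure D1:**
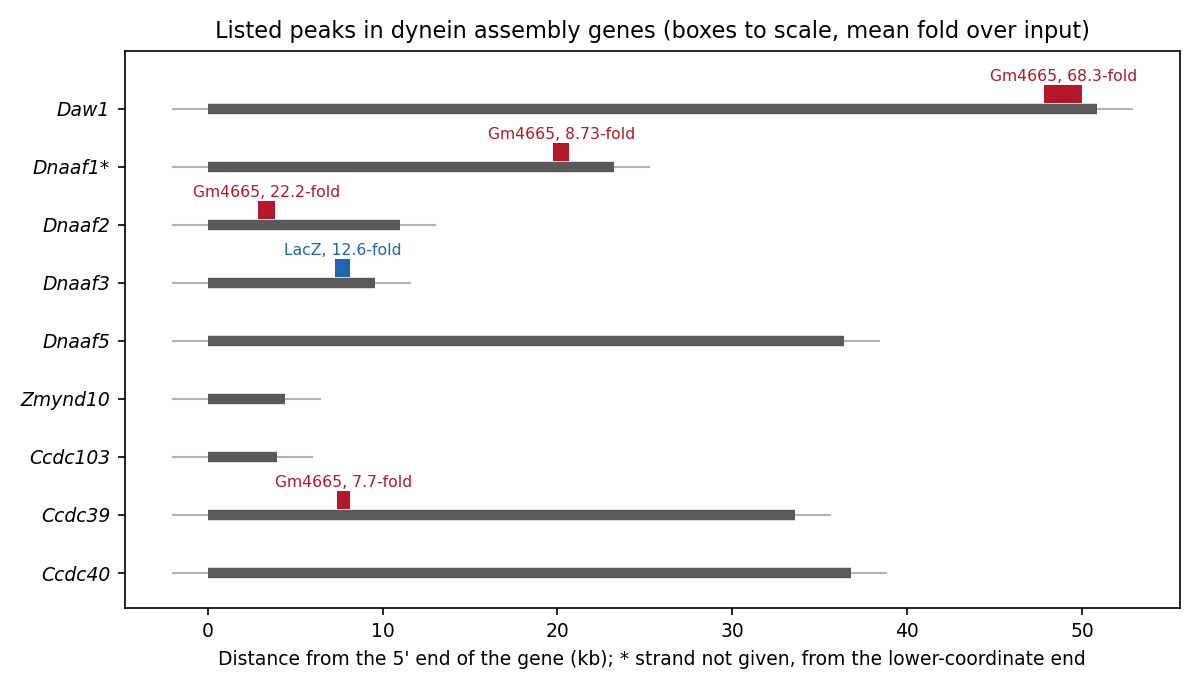
Map of the 9 genes drawn from the 5′ end (kb); dark bars are gene spans, thin lines the 2 kb flanks, and boxes the listed peaks to scale, with the mean fold over input. The Gm4665 peak of Daw1 lies at the far end of the gene, those of Dnaaf2 and Ccdc39 in its first part, and 4 genes have no peak; Dnaaf1, whose strand was not given, is drawn from its lower coordinate.

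Sequences just before the transcription starts were searched for short motifs, and they do not show where the peaks lie. The 250 bases before a listed start are printed for Daw1, which has the strongest peak, and for Dnaaf2. Dnaaf2 is the only member with a Gm4665 peak within 2 kb of a listed start. They are from RefSeq on GRCm38.p6, the assembly that mm10 names, and run from 5′ to 3′ on the strand of the gene. The Daw1 stretch is chr1:83159505-83159754 on the plus strand and the Dnaaf2 stretch is chr12:69198430-69198679 on the minus strand. Capitals mark matches to the letters searched.
Daw1: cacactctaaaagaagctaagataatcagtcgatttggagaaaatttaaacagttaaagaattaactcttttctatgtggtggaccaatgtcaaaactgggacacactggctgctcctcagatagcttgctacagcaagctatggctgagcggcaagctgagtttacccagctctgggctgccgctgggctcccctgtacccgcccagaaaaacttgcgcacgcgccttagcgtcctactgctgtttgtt
Dnaaf2: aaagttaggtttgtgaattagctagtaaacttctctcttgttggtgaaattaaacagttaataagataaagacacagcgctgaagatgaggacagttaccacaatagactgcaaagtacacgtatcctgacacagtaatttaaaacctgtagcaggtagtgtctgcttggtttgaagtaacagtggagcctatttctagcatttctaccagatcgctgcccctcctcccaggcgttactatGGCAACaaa
The letters searched were GTTGCC, a core of the X-box bound by RFX factors, and TGTTTAC, the core bound by forkhead factors such as Foxj1, on both strands, with no overlap between them. Both factor families are known to drive genes of motile cilia. Of the members with a promoter sequence, 8 of 9, GTTGCC was found in Dnaaf2 alone, in reverse as GGCAAC, from 9 to 4 bases before the start. It occurs in 10.5% of 21263 protein-coding promoters of this length. TGTTTAC was found in none of the 8, beside 2.62% of promoters. Dnaaf1 has no entry among these sequences.

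No Gm4665 or LacZ peak overlapped any of the 9 promoter windows of these 8 genes, each running from 250 bases before to 50 after a listed start. Such an overlap was rare over all 17492 protein-coding genes with known strand, at 1.76% for Gm4665 and 0.80% for LacZ peaks, so its absence in 8 genes does not set them apart. Promoter composition spanned a wide range, from 40.8% G and C with 4 CpG in the 250 bases at Dnaaf2 to 76.4% with 35 CpG at Ccdc40, around medians of 55.6% and 10 CpG over all promoters.

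Daw1, also known as Wdr69, encodes a WD-repeat protein needed to deliver outer dynein arms to the axoneme. The gene (71227) spans 83159742 to 83210577 on chromosome 1 of mm10, on the plus strand, over 50.8 kb. Its Gm4665 peak ran from 83207620 to 83209695, was 2076 bp wide and lay wholly inside the gene, at 96.2% of its length from the 5′ end. The peak ended 882 bp before the 3′ end and began 47.9 kb after the nearest listed start. It thus lay near the 3′ end of Daw1 and far from its listed starts. Exons, introns and UTRs were not separated here. Within 2 kb of the 3′ end of a gene, a Gm4665 peak was listed at 1 of the 8 members with known strand, beside 7.64% of 17492 such protein-coding genes. That member is Daw1, whose peak led to its choice. No other annotated gene lay within 2 kb of the Daw1 peak.

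The Daw1 peak had folds of 77.2, 60.2 and 67.4 in replicates 1, 2 and 3. All 3 values were high, and the lowest was above every fold of the other members. The whole list differed between replicates in the same order, with median folds of 11.4, 8.50 and 10.3. Divided by its own replicate's median, Daw1 reached 6.78, 7.08 and 6.56 (mean 6.81 ± 0.261, SD, n = 3), and the order of the replicates changed. It ranked 50, 61 and 54 among 38711 peaks in the single replicates and 33 by the mean, and 0.0852% of the list was as strong or stronger. The pileup is the read coverage at the summit, and the headers do not say which replicate or replicates it covers. It was 228 at Daw1, 79 at Dnaaf2, 31 at Dnaaf1 and 29 at Ccdc39, beside a list median of 36. With 2076 bp the peak was also wider than 99.5% of the list, whose median width was 582 bp. Among protein-coding genes, 18 (0.0826%), Daw1 included, had a peak at least this strong in their window. The median of the strongest peak per gene, over genes that had one, was 13.3.

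**Figure D2:**
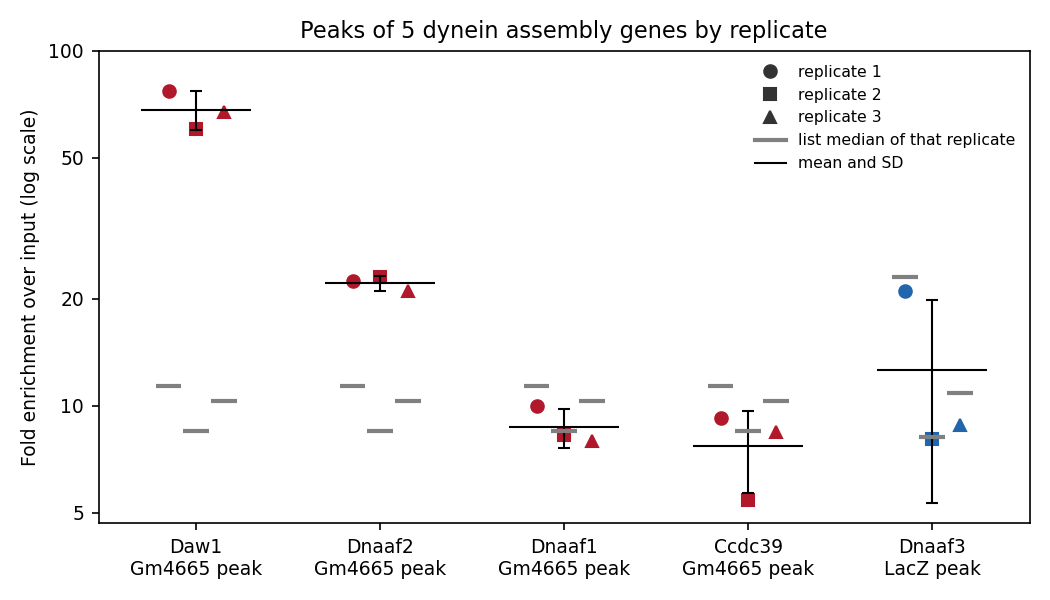
Fold enrichment over input (log scale) in each of the 3 replicates for the 5 peaks found in the members, with the mean and SD in black and each replicate's list median in grey. Daw1 (60.2 to 77.2) and Dnaaf2 (21.0 to 23.1) are above the list medians in all replicates, while Dnaaf1, Ccdc39 and the LacZ peak of Dnaaf3 lie below them.

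The 3 protein-coding genes with replicate folds nearest to those of Daw1, by Euclidean distance over the 3 log2 folds, were Trim9, Nek11 and Thsd7b. Trim9, a neuronal ubiquitin ligase gene, had folds of 77.2, 60.5 and 65.4 at a distance of 0.0454. Nek11, a kinase gene of the DNA damage checkpoint, had 77.7, 59.2 and 65.0 at a distance of 0.0601. Thsd7b, which encodes a protein with thrombospondin repeats, had 81.2, 59.3 and 64.2 at a distance of 0.105. None of the 3 is a gene of the dynein pathway lists used here. The peak of Trim9 lay at 92.3% of the gene and that of Thsd7b at 84.5%, while that of Nek11 lay at 32.1%.

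The nearest other Gm4665 peak to that of Daw1 lay 99.1 kb away, before the gene, with a mean fold of 8.63 ± 2.16 (SD, n = 3). Within 500 kb on either side, 9 other Gm4665 peaks had mean folds of 4.93 to 50.8, with a median of 8.63. The strongest of these, from 82944048 to 82945550, lay 264 kb from the Daw1 peak with folds of 63.4, 48.5 and 40.4. A neighbour of that peak, 276 kb from Daw1, had 41.9 ± 6.36 (SD, n = 3), and neither overlapped an annotated gene. The LacZ list had 2 peaks in this stretch, the nearer one 227 kb away with folds of 42.0, 11.4 and 13.8. The genes next to Daw1 are Krtap28-13, a keratin-associated protein gene, and Ccl20, a chemokine gene, on the 5′ side, and the pseudogene Gm6244 and Sphkap, a sphingosine kinase interactor gene, on the 3′ side. None of the 4 had a peak of either list in its window, although Gm6244 begins 2.35 kb past the Daw1 peak. A Gm4665 peak with a mean fold of 6.99 ± 1.2 (SD, n = 3) began at 83410587, just outside the window of Sphkap, which ends at 83408411 as a gene.

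**Figure D3:**
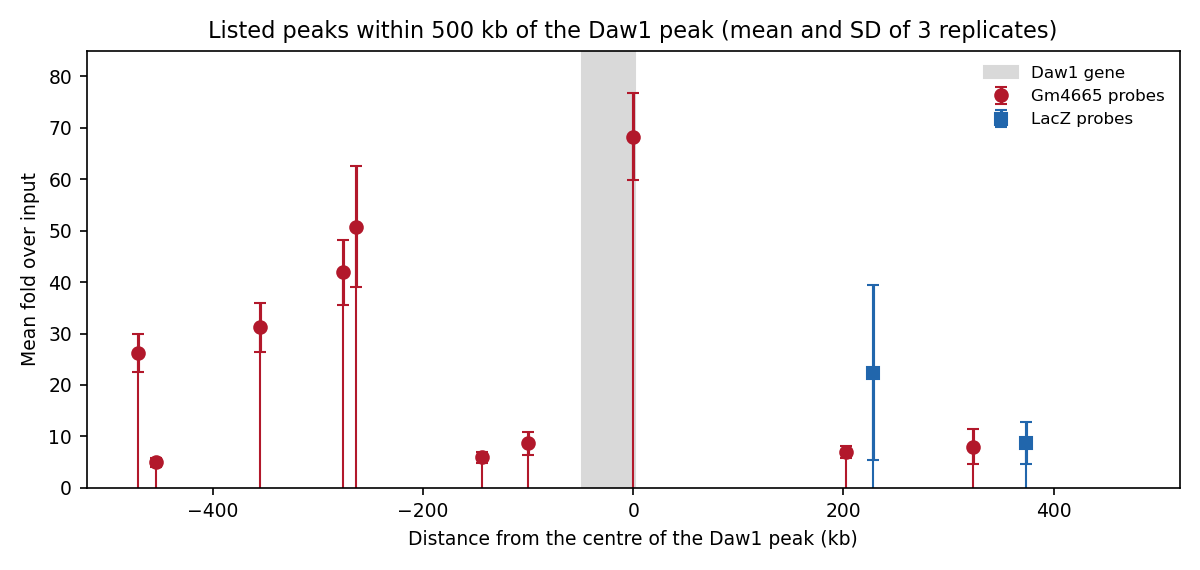
Mean fold over input, with SD of 3 replicates, of every listed peak within 500 kb of the centre of the Daw1 peak (distance in kb); the grey band is the Daw1 gene. The Daw1 peak at 68.3 is the highest, with 9 other Gm4665 peaks (4.93 to 50.8) and 2 LacZ peaks (8.74 and 22.4) around it.

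Dnaaf1, Dnaaf2, Dnaaf3, Dnaaf5 and Zmynd10 act in the cytoplasm, where they help fold and join dynein chains before export to the axoneme. Dnaaf2, known as kintoun, works as a co-chaperone. The gene (109065) spans 69189087 to 69200083 on chromosome 12, on the minus strand. Its Gm4665 peak, from 69196296 to 69197127, was 832 bp wide and lay inside the gene, 1302 bp after the listed start. That start, at 69198429, lies inside the gene span, and so does the stretch before it that is printed above. From the 5′ end of the span the peak lay 2.96 kb away, so its nearness to a start holds for the listed start only. A Gm4665 peak lay within 2 kb of a listed start in 1 of 8 members, beside 8.42% of 17492 protein-coding genes with known strand. The folds at Dnaaf2 were 22.5, 23.1 and 21.0, a narrow spread, and all were at least 1.98 times their replicate's list median. The peak was stronger than 86.8% of the list and the mean fold at Daw1 was 3.08 times as high. A lncRNA gene on the opposite strand, 9330151L19Rik, begins 84 bp from this peak and overlaps Dnaaf2, so the peak cannot be given to Dnaaf2 alone.

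Dnaaf1, a leucine-rich repeat protein gene (68270), spans 119575235 to 119598454 on chromosome 8. Its peak, from 119595040 to 119595864, lay inside the gene, 19.8 kb from its lower and 2.59 kb from its upper coordinate. The folds were 9.99, 8.26 and 7.94, which is 0.878, 0.972 and 0.772 times the list median of each replicate. All 3 were thus below the middle of the list, and 59.6% of Gm4665 peaks were as strong or stronger. Outside the window, 7.77 kb from the gene in Hsdl1, lay a further Gm4665 peak with 6.29 ± 0.896 (SD, n = 3).

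Dnaaf3 (436022), which acts at a later cytoplasmic step, spans 4522933 to 4532488 on chromosome 7, on the minus strand. It was the only member with a LacZ peak, from 4524432 to 4525143, inside the gene and 1499 bp from its 3′ end. The peak also lay 1714 bp from Tnni3, the gene of cardiac troponin I, on the same strand. The folds were 21.0, 8.06 and 8.84 (mean 12.6 ± 7.27, SD, n = 3), and replicate 1 was high, as across the LacZ list, whose median folds were 23.0, 8.18 and 10.9. Relative to those medians the Dnaaf3 peak had 0.914, 0.985 and 0.809, below the middle of its list in all replicates. Without replicate 1 its mean was 8.45. LacZ peaks lay within 2 kb of the 3′ end in 2.51% and within 2 kb of a listed start in 2.71% of protein-coding genes with known strand, and at 1 and 0 of the 8 members. The nearest Gm4665 peak to Dnaaf3 lay 7.17 kb outside the gene, in Syt5, with folds of 17.9, 14.4 and 16.2. The 2 lists were made separately, and their folds are set side by side without a test.

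Dnaaf5 (433956; chromosome 5, 139150133 to 139186510), a HEAT-repeat protein gene, had no peak in its window of 40.4 kb. Its nearest Gm4665 peak was 31.1 kb away in Prkar1b, with folds of 28.7, 15.9 and 17.0. Zmynd10 (114602; chromosome 9, 107546872 to 107551321), which encodes an adaptor for dynein chaperones, is short at 4.45 kb. Its nearest Gm4665 peak was 47.8 kb away in Cacna2d2, with 6.45 ± 0.237 (SD, n = 3). LacZ peaks lay 83.8 kb from Dnaaf5 and 90.7 kb from Zmynd10. At these members only the absence from the lists is known, since signal below the threshold of the lists was not measured.

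Ccdc103, Ccdc39 and Ccdc40 act on the axoneme itself. Ccdc39 and Ccdc40 form a coiled-coil ruler that sets the spacing of inner arms and nexin links, and Ccdc103 helps fix the arms to the microtubules. Ccdc39 (51938) spans 33810757 to 33844325 on chromosome 3, on the minus strand. Its Gm4665 peak, from 33836246 to 33836843, was 598 bp wide and lay inside the gene, 7.47 kb after the listed start. The folds were 9.24, 5.44 and 8.42, lowest in replicate 2, and all were below their list median. The partner gene Ccdc40 (207607; chromosome 11, 119228490 to 119265248), of similar length, had no peak. The Gm4665 peak nearest to Ccdc40 was 49.8 kb away in Card14, with folds of 10.5, 11.2 and 10.2. The 2 partners thus differed in whether a peak was listed, but the Ccdc39 peak was stronger than 30.3% of the list and so below its middle.

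Ccdc103 (73293; chromosome 11, 102881224 to 102885216), the shortest member at 3.99 kb, was farthest from any Gm4665 peak. The nearest lay 168 kb away in Nmt1, with folds of 19.5, 15.7 and 13.2, while a LacZ peak lay 19.7 kb away with 13.4 ± 5.44 (SD, n = 3). No Gm4665 peak lay in the flanks of a member. The same 4 members had a Gm4665 peak with no flank and with flanks of 1 kb or 5 kb. The peak nearest to a window without entering it lay 7.17 kb from the gene, at Dnaaf3.

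Gene length was related to the presence of a peak over all genes. A Gm4665 peak was present in 17.2% of protein-coding genes with windows under 20 kb, in 43.1% at 20 to 50 kb, in 67.3% at 50 to 100 kb and in 90.9% above 100 kb. Dnaaf2, Dnaaf3, Zmynd10 and Ccdc103 have windows under 20 kb, and 1 of these 4 had a peak. Dnaaf1, Dnaaf5, Ccdc39 and Ccdc40 have windows of 20 to 50 kb, and 2 of the 4 had one. Daw1, at 54.8 kb, was the only member in the next class. LacZ peaks followed length too, at 5.68%, 15.0%, 27.3% and 55.8% in the same classes. Over 246 kb of windows the members held 1.63 Gm4665 peaks per 100 kb, the Daw1 peak included, beside 1.64 over all protein-coding genes. For LacZ these densities were 0.407 and 0.451. The median fold of the 4 member peaks was 15.5 beside 10.1 over all peaks in protein-coding windows, and 8.73 without Daw1, which was chosen for its fold.

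The rest of the dynein arm pathway gave the setting. Of 14 other assembly factors, 6 had a Gm4665 peak (42.9%, beside 39.3% of all protein-coding genes) and 1 a LacZ peak (7.14%, beside 16.9%), with a median fold of 8.87 over 10 Gm4665 peaks. The strongest was in Dnaaf9, listed as 4930402H24Rik, with folds of 49.6, 40.0 and 43.4 inside the gene. Dnaaf11, listed as Lrrc6, had 15.7 ± 2.07 and Ttc12 had 12.7 ± 3.52 (SD, n = 3 each). Dnaaf4, a partner of Dnaaf2 in the chaperone step, had a LacZ peak alone (10.4 ± 8.01, SD, n = 3). Daw1 was above every one of these factors in mean fold, which follows from its choice by fold.

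Of 27 genes of dynein arm subunits, 23 had a Gm4665 peak, beside the 39.3% of all protein-coding genes, with a median fold of 10.5 over 81 peaks. Of these 27, 15 are heavy chain genes, the motors themselves, which are 65.5 to 382 kb long. Of the heavy chain genes, 14 had a Gm4665 peak and 11 a LacZ peak. In windows over 100 kb, the class of all but Dnah1, the shares over all protein-coding genes were 90.9% and 55.8%. Dnah1, at 65.5 kb, falls in the class of 50 to 100 kb, with shares of 67.3% and 27.3%. It had LacZ peaks but no Gm4665 peak. The density of Gm4665 peaks in heavy chain genes was 1.85 per 100 kb, close to the 1.64 of all protein-coding genes. Of the 12 lighter subunits, 9 had a Gm4665 peak and none a LacZ peak, at 3.52 per 100 kb over 455 kb. Over all protein-coding genes the shares were 39.3% and 16.9%. These 12 genes are 3.88 to 76.2 kb long, so their windows fall in each length class up to 100 kb. The Gm4665 shares of these classes were 17.2% under 20 kb, 43.1% at 20 to 50 kb and 67.3% at 50 to 100 kb. The LacZ shares were 5.68%, 15.0% and 27.3%. No difference between these 12 genes and the background was tested. In outer arms the strongest were Dnah5, a heavy chain gene (48.5 ± 8.0), and the intermediate chain genes Dnai1 (36.6 ± 3.91) and Dnai2 (30.2 ± 4.35; SD, n = 3 each). In inner arms they were Dnah7b (38.2 ± 10.7), Dnah3 (33.3 ± 4.10) and Dnah7c (26.4 ± 7.82; SD, n = 3 each). Dnah7a, Dnah7b and Dnah7c are close copies, so reads may be shared between them. The Dnai2 peak named here lay outside its gene, in the 5′ flank. The strongest LacZ peaks were in Dnah5 for outer arms (14.4 ± 6.16) and in Dnah10 for inner arms (23.4 ± 12.6; SD, n = 3 each).

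Proteins that anchor the arms and the genes that switch the program on were read in the same way, beside shares over all protein-coding genes of 39.3% for Gm4665 and 16.9% for LacZ peaks. The lists are small and hold long genes such as Rfx3 at 253 kb, a length at which most genes have a Gm4665 peak. Of 6 docking genes 4 had a Gm4665 peak and none a LacZ peak, led by Odad3 (18.7 ± 5.16), Odad2 (13.6 ± 6.60) and Ccdc63 (11.6 ± 2.25; SD, n = 3 each). Of 8 genes of the nexin-dynein link 5 had a Gm4665 peak and 2 a LacZ peak, led by Iqca (30.0 ± 6.26), Drc1 (12.2 ± 3.82) and Tcte1 (11.4 ± 3.00; SD, n = 3 each). The peak of Drc1 overlapped a listed start. The strongest LacZ peak of that list was also in Tcte1 (16.2 ± 11.2, SD, n = 3). Of 6 regulators of motile cilia 3 had a Gm4665 peak, Rfx3 with 34.6 ± 11.7, Gmnc with 28.0 ± 4.88 and Rfx2 with 24.6 ± 2.82 (SD, n = 3 each), and 2 a LacZ peak, the stronger in Rfx3 (16.2 ± 8.16, SD, n = 3). Foxj1, the main switch of motile cilia, had none. The strongest Gm4665 peak of Rfx2 lay outside its gene, in the 3′ flank. Daw1 had the highest mean fold among the 70 genes of all these lists, the members included. This rank follows from its choice by fold and is not a result about the pathway.

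**Figure D4:**
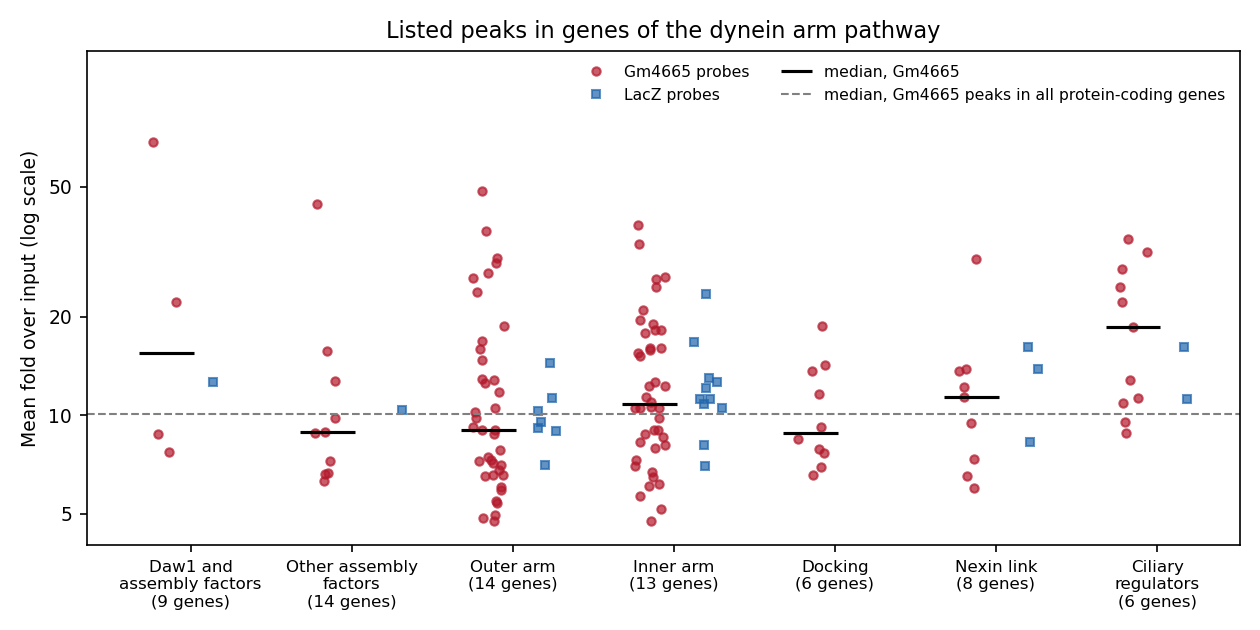
Mean fold over input (log scale) of every listed peak in the 9 members and in 6 other gene lists of the dynein arm pathway, red for Gm4665 and blue for LacZ probes; black lines are list medians and the dashed line the median of 10.1 over Gm4665 peaks in all protein-coding genes. Daw1, chosen for its fold, is the highest point at 68.3. The other 3 Gm4665 peaks of the members lie within the range of the other lists.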

How the data were processed

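Per the file names, peaks were called with MACS2, on mm10 per the submitters' processing notes; version, settings, aligner and how replicates were joined are not given in sources used here. The deposited lists give, per the file headers, a linear fold (a ratio to input) for each replicate and a pileup signal (coverage) whose replicate is not named. Read totals were not used here.

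Rows repeating an interval (649 Gm4665, 165 LacZ) were merged, keeping each replicate's highest fold, and 116 and 25 intervals off chromosomes 1 to 19, X and Y were left out, which left 38711 and 9448. Gene spans, starts and strands came from RefSeq tables of GRCm38.p6; 340 entries starting below 3 Mb were dropped as scaffold coordinates. All 70 list genes matched. Overlaps used Python 3.11.15 and pandas 2.3.3 and were tested on simulated intervals. No hypothesis test was run: 1 set of intervals covers all replicates.

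Members and lists were chosen with earlier results of these data known; length classes, end windows and the 500 kb stretch were added after seeing the data. Named genes are the members; in each other list up to 3 by Gm4665 and 1 by LacZ fold; the 3 nearest Daw1 in fold; genes at a member's peak; and 2 neighbours on each side of Daw1. Foxj1 and genes holding a nearest peak are named outside this rule, after their values were seen.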

Additional observations from a re-analysis of the deposited data

How the results depend on the processing

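The members with a peak were the same 4 for Gm4665 and the same 1 for LacZ under all alternatives run: no flank, flanks of 1 kb or 5 kb, folds of 4 or more in every replicate, and at least 50% of the peak inside the window. The share of protein-coding genes with a Gm4665 peak, 39.3%, was 35.0% with no flank, 37.2% with 1 kb, 45.1% with 5 kb, 38.3% with the fold minimum and 38.6% with the stricter overlap; window size and fewer peaks set these by construction. Without each replicate in turn, the mean fold at Daw1 was 63.8 to 72.3 and its rank 36 to 45, against 33 with all 3. The rank was 27 with repeated intervals joined by their mean fold, which lowers joined peaks by construction, and 35 by the lowest of the 3 folds. Which peaks are listed could not be recomputed without a replicate. No paired analysis was possible because no result comes from a test and no member has a peak in both lists. Library depth was not used here, so a missing peak may be signal below a list's threshold.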
